A study of Homo sapiens with 1 sample.

Results

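Cadherins and the protocadherins that lie outside the large gene clusters were described in a single-cell RNA-seq library of differentiating human cells. The members were all genes whose symbol is CDH or PCDH followed only by a number, which gave 34 of the 33538 genes in the table, of which 23 were cadherins and 11 were protocadherins. The library was made from the hESC (human embryonic stem cell) line H9 with genotype WT, which carries the human form (hHAR123) of HAR123, a human accelerated region within the gene SMG6. The cells had been directed towards neural progenitor cells (NPCs) with 1 μM dorsomorphin and 10 μM SB431542, 5 μM Rock inhibitor being present for the first 2 days. They then spent 5 days in rotating suspension culture and 7 days on Matrigel, and were taken ahead of rosette selection. Independent clones had been pooled and cannot be told apart here, and the other HAR123 genotypes are not analysed here. A lone library gives no replicates. Cell classes were therefore not tested against each other, and the intervals given below are 95% intervals that cover counting error only.

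Cadherins are calcium-dependent adhesion proteins that bind partners on neighbouring cells and, in the classical types, hold the actin cytoskeleton through catenins. Neural tube cells carry N-cadherin (CDH2) in place of E-cadherin (CDH1), and different brain regions and neuron types carry different sets of type II cadherins and delta-protocadherins, which bind mostly to their own kind. Such sets are often called an adhesion code, because cells that share members tend to sort together.

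Of 14726 barcodes, 13925 were kept, with 2000 to 10000 detected genes and a mitochondrial share below 0.1, and with a median of 17900 UMIs (unique molecular identifiers, each counting 1 captured RNA molecule). Contractile cells were the 1557 kept cells (11.2%) with 5 or more UMIs of ANXA1, TFPI2 and CTGF together per 10000. Newborn neuron-like cells were the 115 cells (0.826%) with 5 or more UMIs of STMN2, ELAVL4, NSG2 and MYT1L per 10000. The other 12226 cells (87.8%) are called progenitors, and 27 cells past both cuts were left out. In those 27 cells STMN2 stood at 913 UMIs per 1000000 UMIs, while ELAVL4 and MYT1L had no UMI. Both cuts divide a continuous range, with 89 cells just below the contractile cut (4 to under 5) and 72 just above it (5 to under 6), and 33 and 19 cells at the newborn cut.

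Levels are given as CPM, the UMIs of a gene per 1000000 UMIs of the class, not divided by transcript length, and differences as ratios of these levels. The class names were checked against markers that the cuts did not use. All 8 listed neural progenitor genes and all 6 forebrain genes stood at 20 or more CPM in progenitors. This limit alone did not set the classes apart. In newborn neuron-like cells 7 and 6 of these genes passed it, in contractile cells 6 and 5, and 6 of 8 contractile genes passed it in progenitors. Of the forebrain genes, 4 were 2-fold or more lower in contractile cells and 3 in newborn neuron-like cells, and none was higher. In the latter cells 6 neural progenitor genes were lower and none higher. All 8 listed contractile genes were 2-fold or more higher in contractile cells than in progenitors, with TAGLN at 4598 against 445.8 CPM. Of the 8 neural progenitor genes, 5 were 2-fold or more lower in contractile cells, among them SOX2 (118 against 414) and HES5 (10.3 against 182), and 2 were higher, VIM (4270 against 908) and NES (666 against 239), so that the summed level of the list was higher there (5164 against 2366). Of 7 epithelial genes, 5 were 2-fold or more higher in contractile cells, among them KRT18 (392 against 83.3) and CLDN6 (147 against 14.8), while KRT19 was lower (14.3 against 29.6) and EPCAM was at 3.82 against 4.74. Of 8 genes of mesenchyme and crest, 3 were 2-fold or more higher there, among them COL1A2 (68.7 against 8.20), and 2 were lower. No UMI limit was set for these marker counts. CLDN7, among the 5 epithelial genes that were higher, had 9 UMIs in contractile cells and 12 in progenitors. The 2 lower genes of mesenchyme and crest, DCN and TFAP2A, had 0 and 7 UMIs in contractile cells. All 9 listed newborn neuron genes were 2-fold or more higher in newborn neuron-like cells, with DCX at 885 against 66.6. These cells also held EBF2 (351 against 0.935) and RELN (114 against 1.15), genes of Cajal-Retzius cells, but no UMI of TP73. The classes differed in depth, with medians of 16956 UMIs per progenitor, 47278 per contractile cell and 12996 per newborn neuron-like cell. 

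All 34 members had at least 1 UMI in kept cells, and 22 had 1000 or more. The family was at its highest summed level in contractile cells. It made up 1850 CPM in progenitors (interval 1845 to 1856), 2525 in contractile cells (2513 to 2536) and 2213 in newborn neuron-like cells (2143 to 2285). The ratio to progenitors was 1.36 (1.36 to 1.37) in contractile cells and 1.196 (1.16 to 1.23) in newborn neuron-like cells. Counted per cell, contractile cells held 122 family UMIs against 35.8 in progenitors, a ratio of 3.42 that includes their greater depth, and newborn neuron-like cells held 32.7. The part of RNA content in that ratio was not tested. Protocadherins took 18.2% of the family's UMIs in progenitors, 22.9% in contractile cells and 21.2% in newborn neuron-like cells.

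N-cadherin was the most abundant member in every class, and the members ranked behind it differed by class. CDH2 made up 41.0% of family UMIs in progenitors, 37.5% in contractile cells and 30.01% in newborn neuron-like cells. In progenitors CDH11, PCDH7, CDH4 and CDH10 followed. CDH6, PCDH7, CDH11 and CDH13 followed in contractile cells, and CDH4, CDH18, PCDH9 and CDH11 in newborn neuron-like cells. The leading 5 members held 75.1%, 84.7% and 75.7% of the family in the 3 classes. Contractile cells needed 7 members to reach 90% of family UMIs, progenitors 10 and newborn neuron-like cells 11.

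**Figure D1:**
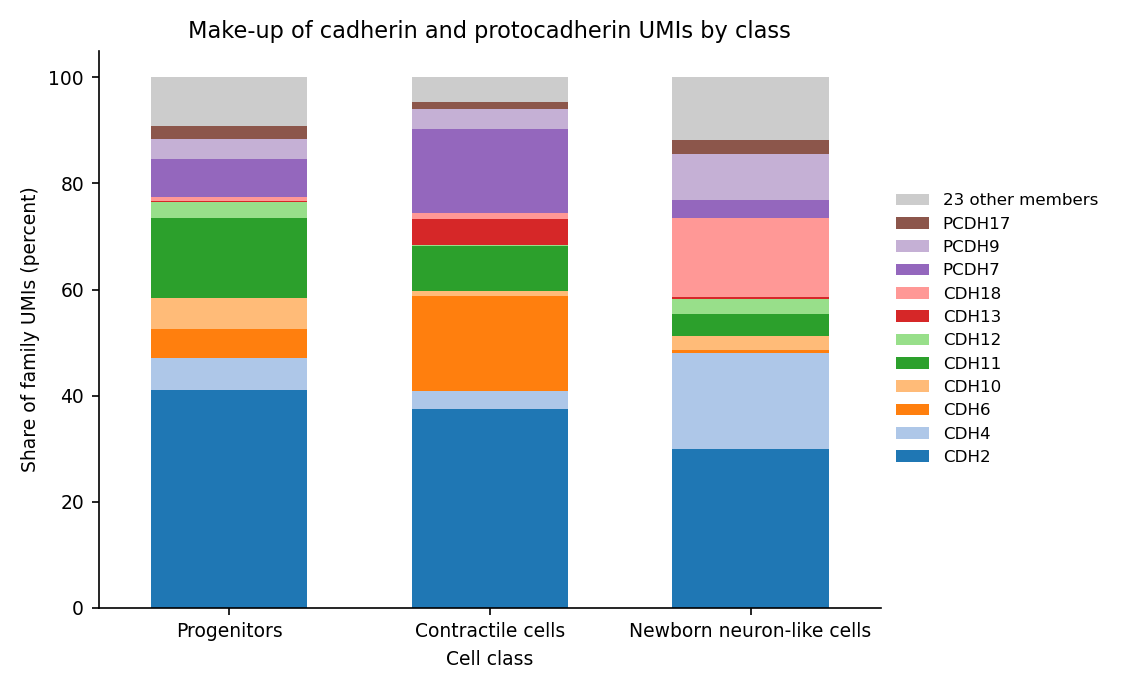
Stacked bars give the share of cadherin and protocadherin UMIs (percent, vertical axis) taken by 11 named members and by the 23 others together in each cell class (horizontal axis). CDH2 is the lowest block of each bar, at 41.0%, 37.5% and 30.01%, and CDH6 and PCDH7 widen in contractile cells while CDH4 and CDH18 widen in newborn neuron-like cells.

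The comparison of contractile cells with progenitors asks which adhesion molecules distinguish cells with an actomyosin programme from the neural cells around them. Of the 22 members with 1000 or more UMIs, 6 were 2-fold or more higher in contractile cells (CDH13, CDH6, CDH7, PCDH7, PCDH10 and CDH18). Over all 12915 genes at this depth, 6.56% were 2-fold or more higher. Another 5 members were 2-fold or more lower (CDH12, CDH10, CDH20, PCDH19 and PCDH18), where the share over all genes was 16.2%. The other 11 lay within 2-fold. CDH7 reached 1000 UMIs only with its 639 UMIs in contractile cells (526 without them), so it had to be among the higher members, and without it 5 were. CDH12, CDH20, PCDH19 and PCDH18 had under 1000 UMIs outside the progenitors, where they were higher, so both counts are descriptions. Progenitors held 75.1% of kept UMIs, so this did not by itself fix the direction. It also held for PCDH15, CDH23, CDH24, PCDH1 and CDH3, which lay within 2-fold, and for CDH7. The median log2 ratio of the members was −0.24, beside −0.25 over all genes tested. Counted as UMIs per cell, 11 members were 2-fold or more higher, beside 54.7% of all genes tested, and 2 were lower, beside 2.27%.

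In newborn neuron-like cells, 6 members were 2-fold or more higher than in progenitors (CDH18, CDH7, CDH4, PCDH15, PCDH10 and PCDH9), beside 6.81% of all genes tested. Another 3 were 2-fold or more lower (CDH6, CDH24 and CDH11), beside 13.6% of all genes tested, and 13 lay between. Among the members the share that was lower was also 13.6%. CDH24 had 584 UMIs outside the progenitors, under the UMI limit for the members tested, and 4 in newborn neuron-like cells. CDH24 thus passed that limit only with the progenitors, where it was higher, so the count of lower members is a description. The median log2 ratio was 0.26 for the members and −0.13 for all genes. Counted as UMIs per cell, 6 members were higher, beside 3.85% of all genes, and 5 lower, beside 24.7%. With the class widened to cells with 2 or more of its 4 cut genes per 10000, the counts became 4 higher (2.72% of all genes tested) and 2 lower (2.11%), and the ratios that changed are given with each gene. Both comparisons share the progenitors as their reference, so the ratios of a gene in the 2 classes are not independent of each other.

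**Figure D2:**
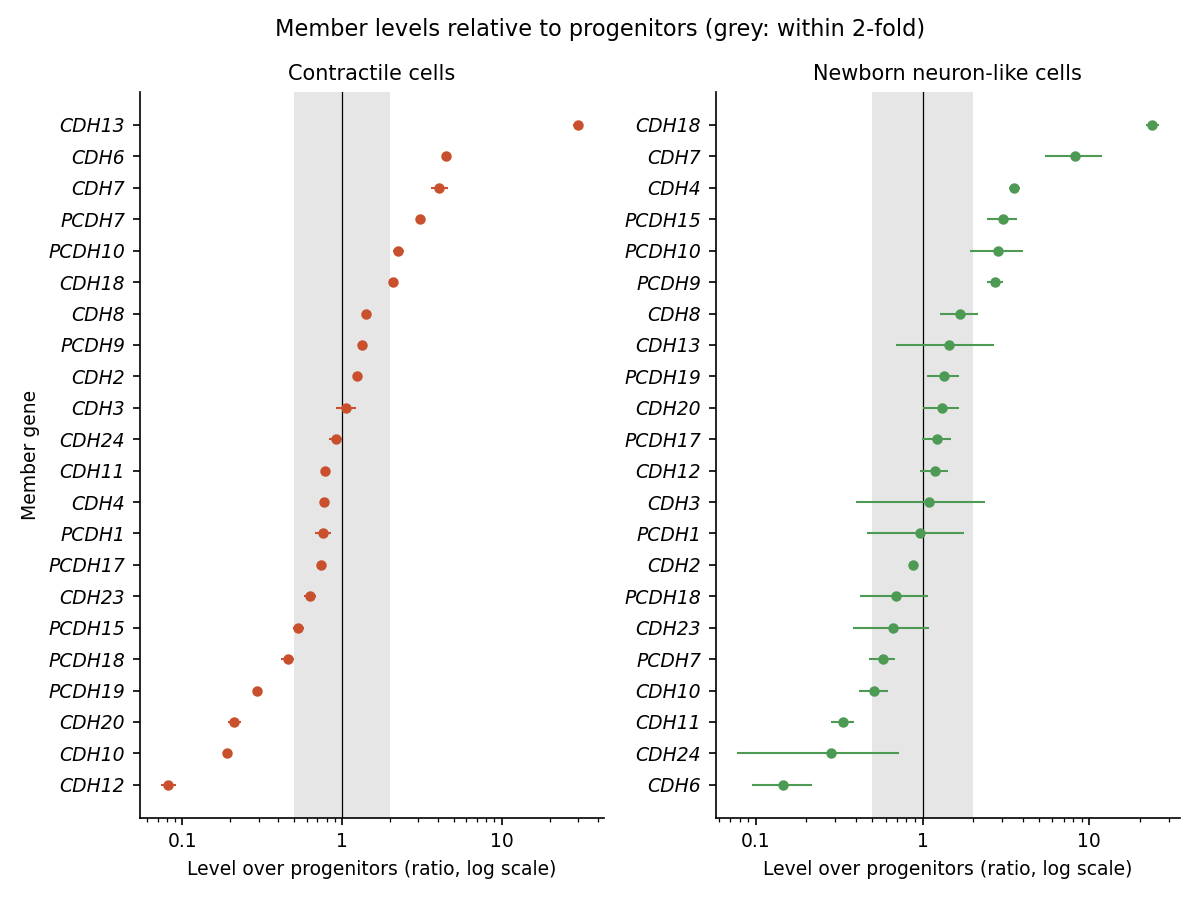
Points give each member's level in contractile cells (left) and newborn neuron-like cells (right) over its level in progenitors (ratio, log axis), with 95% intervals for counting error, for the 22 members with 1000 or more UMIs. The grey band marks ratios within 2-fold. CDH13 stands at 30.02 on the left and CDH18 at 23.8 on the right, while CDH12 (0.0816) and CDH6 (0.147) are the lowest points.

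Type I classical cadherins are the best-known members of the family, and their adhesion arranges epithelia and the ventricular lining. Their summed level was 875 CPM in progenitors, 1037 in contractile cells and 1064 in newborn neuron-like cells. CDH2 stood at 759 (756 to 763), 947 (941 to 954) and 664 (626 to 704), so its ratios were 1.25 (1.24 to 1.26) and 0.875 (0.824 to 0.927). It was present throughout and varied by less than 2-fold between the classes.

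R-cadherin, the product of CDH4, is a close relative of N-cadherin in the developing brain and retina. CDH4 was at 112 CPM in progenitors, 86.2 in contractile cells and 397 in newborn neuron-like cells. It was 3.54-fold higher (3.28 to 3.82) in newborn neuron-like cells than in progenitors, and 0.769 of the progenitor level in contractile cells. With the wider newborn class the ratio was 1.95, under the 2-fold limit. Since CDH2 was lower in the newborn neuron-like cells, the ratio of CDH4 to CDH2 differed more between those classes than CDH4 alone. E-cadherin (CDH1), the adhesion molecule of pluripotent cells and epithelia, had 59 UMIs in all kept cells, of which 44 were in progenitors, 15 in contractile cells and none in newborn neuron-like cells, where the depth allows up to 1.77 CPM. Its level was 0.186 CPM in progenitors and 0.199 in contractile cells, although KRT8 and KRT18 were higher in the latter. P-cadherin (CDH3), the neighbour of CDH1 on chromosome 16, lay between 3.24 and 3.53 in all 3 classes. CDH15, the cadherin of skeletal muscle, had 19 UMIs in all, 1 of them in contractile cells.

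Type II classical cadherins use a somewhat different binding interface and vary between brain nuclei, neuron pools and mesenchymal tissues. The 12 of them in the table summed to 619 CPM in progenitors, 776 in contractile cells and 661 in newborn neuron-like cells. The totals were closer to each other than the levels of some members, since this group held both higher and lower members in each comparison.

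CDH6, known as K-cadherin from the kidney and also found in the neural tube and neural crest, was the type II member that most marked contractile cells by level. It stood at 100.4 CPM (99.2 to 102) in progenitors, 452 (447 to 456) in contractile cells and 14.7 (9.52 to 21.7) in newborn neuron-like cells. It was 4.50-fold higher (4.42 to 4.57) in contractile cells than in progenitors and 6.82-fold lower in newborn neuron-like cells, where its ratio of 0.147 became 0.361 in the wider class. CDH11, known as OB-cadherin from bone-forming cells and also present in the neural tube, had the opposite rank in the first comparison. Its level was 277 (275 to 279) in progenitors, 218 (214 to 221) in contractile cells and 91.8 (78.0 to 107) in newborn neuron-like cells. Its ratio was 0.785 (0.772 to 0.798) in contractile cells and 0.331 (0.281 to 0.388) in newborn neuron-like cells, so both CDH6 and CDH11 were low in the latter. In the wider newborn class the ratio of CDH11 was 0.713, within 2-fold.

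CDH10, CDH12 and CDH20, type II cadherins of the nervous system, were members of progenitors rather than of contractile cells. CDH12 was at 55.8 CPM (54.9 to 56.8) in progenitors and 4.56 (4.09 to 5.07) in contractile cells, 12.2-fold lower. CDH10 was at 110.5 (109 to 112) and 21.0 (19.97 to 22.1), 5.26-fold lower, and CDH20 at 29.4 (28.7 to 30.1) and 6.23 (5.68 to 6.82), 4.71-fold lower. These contractile levels were 8.16% (CDH12), 19.0% (CDH10) and 21.2% (CDH20) of the progenitor levels. Among genes at 50 CPM or more in progenitors the lowest such value was 5.12% (LINC01830) and HES5 reached 5.65%, and the part of free RNA in the CDH12 value was not tested. In newborn neuron-like cells these 3 stood at 65.9 (CDH12), 56.5 (CDH10) and 38.3 (CDH20). For CDH12 the ratio to progenitors there was 1.18 (0.971 to 1.42), so a difference was not detectable at this depth. For CDH10 the ratio was 0.512 (0.414 to 0.625), and 1.03 in the wider newborn class.

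CDH18, a cadherin of the central nervous system, had the highest ratio to progenitors in newborn neuron-like cells among the 22 members with 1000 or more UMIs. It stood at 14.0 CPM (13.5 to 14.4) in progenitors, 29.2 (28.0 to 30.4) in contractile cells and 332 (305 to 361) in newborn neuron-like cells. The ratios to progenitors were 2.09 (1.98 to 2.21) and 23.8 (21.7 to 26.0), the latter becoming 8.95 in the wider newborn class. By level and by the share of cells with a UMI, CDH4 stood above it there, at 397 CPM and 73.9% of cells against 332 and 25.2%. This RNA was held by few cells. Of its 564 UMIs in newborn neuron-like cells, 492 came from 12 of the 115 cells, 29 cells had any, and the cell with the most had 93. The mean level of the class therefore does not describe most of its cells.

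CDH7 was low everywhere, at 2.08 CPM in progenitors, 8.47 in contractile cells and 17.1 in newborn neuron-like cells. Its ratios were 4.08 (3.62 to 4.59) and 8.21 (5.44 to 11.9), the last from 29 UMIs and becoming 3.73 in the wider newborn class. CDH8 was at 21.1, 29.8 and 35.3, within 2-fold in both comparisons. CDH24 was at 8.35 and 7.65 in the 2 larger classes and had 4 UMIs in newborn neuron-like cells, which gives a ratio of 0.282 with an interval from 0.0768 to 0.723. CDH9 had 64 UMIs in all, 11 of them in newborn neuron-like cells, where its level was 6.48 against 0.144 in progenitors, a ratio of 45.0 (20.6 to 90.9). CDH19, a cadherin of glial precursors in peripheral nerve, had 24 UMIs and CDH22 had 56.

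**Figure D3:**
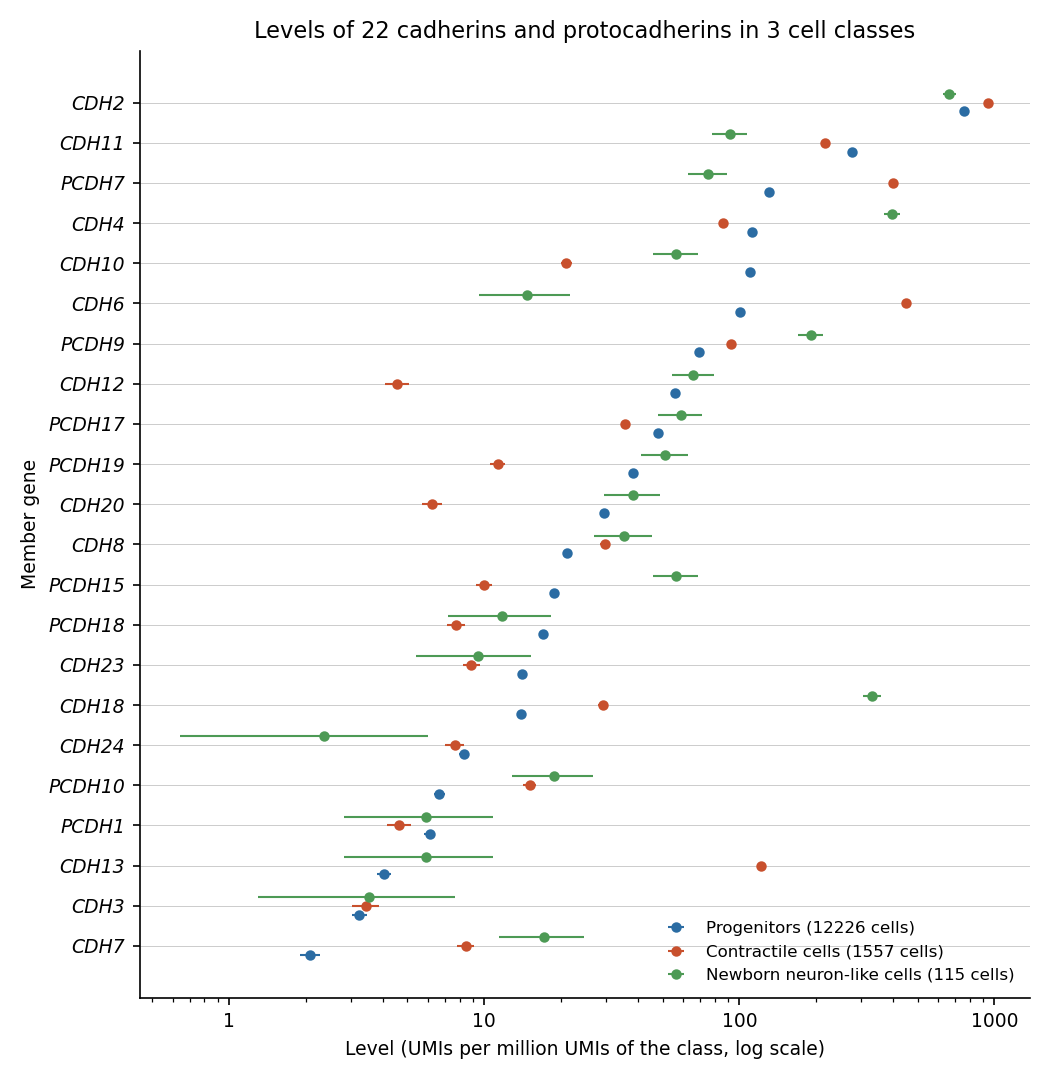
Points give the level of the 22 members with 1000 or more UMIs (CPM, log axis) in progenitors, contractile cells and newborn neuron-like cells, with exact 95% Poisson intervals. Genes are ordered by their level in progenitors, from CDH2 at 759 to CDH7 at 2.08, and the intervals widen in the newborn neuron-like class of 115 cells.

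Delta-protocadherins have longer or shorter cytoplasmic tails with conserved motifs instead of the catenin-binding tail, and are expressed in restricted patterns across the nervous system. The 8 of them summed to 317 CPM in progenitors, 567 in contractile cells and 413 in newborn neuron-like cells. The total in contractile cells was carried mostly by PCDH7, known as BH-protocadherin for its expression in brain and heart. PCDH7 stood at 131 CPM (129 to 132) in progenitors, 400.1 (396 to 405) in contractile cells and 75.3 (62.9 to 89.6) in newborn neuron-like cells. It was 3.06-fold higher (3.01 to 3.11) in contractile cells, and its ratio was 0.576 (0.481 to 0.685) in newborn neuron-like cells.

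PCDH9, which is widely expressed in the developing cortex, was the leading protocadherin of newborn neuron-like cells. Its level was 69.7 CPM in progenitors, 92.4 in contractile cells and 190.1 in newborn neuron-like cells (170.0 to 212), 2.73-fold higher (2.43 to 3.04) than in progenitors. PCDH19, an X-linked protocadherin whose loss causes an epilepsy syndrome, stood at 38.3, 11.3 and 51.2. It was 3.39-fold lower in contractile cells, and its ratio in newborn neuron-like cells was 1.34 (1.07 to 1.65). PCDH17 was within 2-fold in both classes, at 48.2, 35.6 and 58.9.

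PCDH10 and PCDH18, neighbours on chromosome 4, differed in opposite directions in contractile cells. PCDH10 was at 6.67 CPM in progenitors and 15.0 in contractile cells, a ratio of 2.26 (2.09 to 2.44), and at 18.8 in newborn neuron-like cells, a ratio of 2.82 (1.92 to 4.003), or 1.94 in the wider newborn class. PCDH18 was at 17.0 and 7.75, a ratio of 0.456 (0.418 to 0.498). Both lie near the 2-fold limit, and counted per cell PCDH18 was 1.14-fold higher in contractile cells instead. PCDH1 was at 6.10, 4.64 and 5.89, and PCDH8 had 149 UMIs in all.

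Most of the remaining 9 members differ in structure from these groups, and their summed level was 39.2 CPM in progenitors, 144 in contractile cells and 74.2 in newborn neuron-like cells. Most of the level in contractile cells was CDH13, T-cadherin, which lacks a transmembrane part and is held in the membrane by a lipid anchor. CDH13 was at 4.06 CPM (3.81 to 4.32) in progenitors, 122 (119 to 124) in contractile cells and 5.89 (2.82 to 10.8) in newborn neuron-like cells. Its ratio in contractile cells, 30.02 (28.1 to 32.1), was the highest of the 22 members. CDH13 shares 81330 bases on the same strand with HSBP1, which was nearly even between the classes, at 327 CPM in progenitors and 300.1 in contractile cells. Of the 22 members, it alone overlapped a gene with 1000 or more UMIs on the same strand, while CDH2, CDH6, CDH10 and PCDH7 overlapped such genes, each listed under a clone name, on the opposite strand, and whether counting used the strand is not given in the sources used here.

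CDH23 and PCDH15 together form the tip links of hair cells in the inner ear and also occur in neural tissue. CDH23 was at 14.1, 8.88 and 9.42 CPM in progenitors, contractile cells and newborn neuron-like cells. PCDH15 was at 18.7, 9.95 and 56.5, and its level in newborn neuron-like cells was 3.02-fold that of progenitors (2.44 to 3.70). By CPM both partners were thus lower in contractile cells, at ratios of 0.629 (0.578 to 0.684) for CDH23 and 0.533 (0.492 to 0.576) for PCDH15. Counted per cell, which includes the greater depth, both were higher there (1.58 and 1.34). The partners parted in newborn neuron-like cells, where the ratio of CDH23 was 0.668 (0.381 to 1.09). VE-cadherin (CDH5), a divergent classical cadherin of endothelial junctions, had 318 UMIs and stood at 0.550 in progenitors and 2.39 in contractile cells. Beside it, of the 5 listed endothelial genes, ESAM (11.2 against 0.533) and TEK (11.6 against 3.87) were 2-fold or more higher in contractile cells, KDR was nearly even (16.9 against 15.3), PECAM1 was at 0.305 against 0.339 and CLDN5 was lower (0.172 against 0.787). Their part in the CDH5 value was not tested. PCDH12, a protocadherin of endothelium, had 138 UMIs, and CDH26, CDH17, PCDH20 and CDH16 had 313, 29, 10 and 2.

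Shares of cells were compared after each cell was thinned to 5000 UMIs, which left out 28 shallower cells. A thinned progenitor held a median of 4 members and 8 family UMIs, a contractile cell 5 members and 11 UMIs, and a newborn neuron-like cell 3 members and 7 UMIs. No family UMI was drawn in 32 progenitors (0.262%), 23 contractile cells (1.48%) and no newborn neuron-like cell. CDH2 alone led in 64.1% of progenitors (63.3 to 65.0), 54.4% of contractile cells (51.9 to 56.9) and 43.9% of newborn neuron-like cells (34.6 to 53.5). CDH11 led in 8.06% of progenitors. CDH6 led in 11.3% and PCDH7 in 8.56% of contractile cells, and CDH4 in 14.9% and CDH18 in 10.5% of newborn neuron-like cells. In 17.6%, 16.9% and 18.4% of cells the lead was tied.

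Members differed in how evenly the cells of a class shared them. CDH2 had a UMI in 96.1% of thinned progenitors, where the same RNA spread evenly would give 97.8%, and unthinned the share was 99.6%. CDH12 had a UMI in 16.4% of thinned progenitors (29.8% unthinned) against 25.9% if spread evenly. With its UMIs divided by the total of each cell, the tenth of progenitors with the highest values held 69.7% of their sum. CDH13 had a UMI in 28.0% of thinned contractile cells against 39.9% if spread evenly, and in 1.69% of thinned progenitors. Unthinned, these shares were 59.7% and 5.32%. RNA free in the droplets can give such low shares. The level of CDH13 in progenitors was 3.33% of that in contractile cells. Among genes at 50 CPM or more in contractile cells the lowest such value was 1.01% (COL8A1), and the part of free RNA in the CDH13 value was not tested.

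In newborn neuron-like cells the spread was the most uneven for CDH18, with a UMI in 20.2% of 114 thinned cells against 76.7% if spread evenly. CDH4 had a UMI in 56.1% of them against 83.4%, and PCDH9 in 33.3% against 60.5%. Of the 23 thinned cells with CDH18, 16 (69.6%) also had CDH4 and 13 (56.5%) had PCDH9. Of the thinned cells with no CDH18 UMI drawn, 52.7% had CDH4 and 27.5% had PCDH9. These pairs were chosen after the values were seen.

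The newborn neuron-like cells were also divided by their UMIs of EBF1, EBF2, EBF3 and RELN, a division made after the values were seen. The 85 cells with 5 or more per 10000 held CDH4 at 423 CPM and CDH18 at 361, and the other 30 cells held them at 315 and 242. PCDH9 had the opposite order, at 143 against 337, a ratio of 0.425 (0.339 to 0.533), where the 139 UMIs of the 30 cells came from 15 of them. Over the class PCDH9 was concentrated as well, with 202 of its 323 UMIs in 12 cells and up to 69 in a cell. CDH11 (66.1 against 172) and CDH10 (42.0 against 102) were also lower in the 85 cells. CDH18 in the 30 cells was 100 UMIs from 5 of them, and those cells can still hold EBF RNA below the limit.

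The contractile class was next viewed as a range, since the 3 genes of its cut are no members of the family. Kept cells other than newborn neuron-like ones were placed in 6 ranges of the summed ANXA1, TFPI2 and CTGF UMIs per 10000 (under 1, 1 to under 2, 2 to under 5, 5 to under 10, 10 to under 20, and 20 or more), with 10883, 868, 475, 319, 518 and 720 cells. CDH6 was at 78.3 CPM in the lowest range and 186, 301, 368, 437 and 486 in the following ones. PCDH7 went from 109 through 215, 330, 359 and 388 to 420. Both were thus higher already in cells far below the cut of 5.

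CDH13 had another course, with 3.32, 6.02 and 11.9 CPM below the cut and 46.0, 98.5 and 159 above it. Its level differed 3.87-fold between the ranges on each side of the cut, where CDH6 differed 1.22-fold. With every cell thinned to 5000 UMIs these steps were 2.497-fold and 1.30-fold. CDH10, CDH12 and PCDH19, which were low in contractile cells, were lower with each range up to the cut. CDH12 went from 60.3 through 37.6, 16.3, 9.19 and 4.59 to 3.13, and CDH10 from 117 through 83.3, 47.4, 28.4 and 19.4 to 19.7. PCDH19 was already at 10.1 in the range of 2 to under 5, from 41.4 in the lowest, and between 10.1 and 12.2 above it. With every cell thinned to 5000 UMIs it was at 45.2, 33.2, 15.4, 9.43, 6.59 and 11.4. CDH20 was nearly level over the lowest ranges, at 30.1 (29.3 to 30.9) and 29.1 (26.7 to 31.6), and then at 19.4, 10.9, 6.35 and 4.72.

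PCDH17 and CDH23 stood at their highest in the middle of the range. PCDH17 was at 45.2, 56.4, 79.3, 73.8, 44.3 and 18.8 CPM. CDH23 was at 12.6, 20.5, 26.9, 15.9, 10.0 and 6.06. The comparison of whole classes, in which both lay within 2-fold, averages over this course. SOX2, a transcription factor of neural progenitors, was at 431 CPM in the lowest range and 90.9 in the highest, and TAGLN at 222 and 5058. The median depth also differed along these ranges, from 16621 UMIs per cell in the lowest to 53762.5 in the highest. With every cell thinned to 5000 UMIs, PCDH17 was at 44.6, 54.8, 69.8, 85.5 and 48.5 in the ranges under 20 and lower still above it, and CDH23 at 11.5, 21.0, 27.0, 20.1, 10.9 and 6.94, so both were again highest in the middle.

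**Figure D4:**
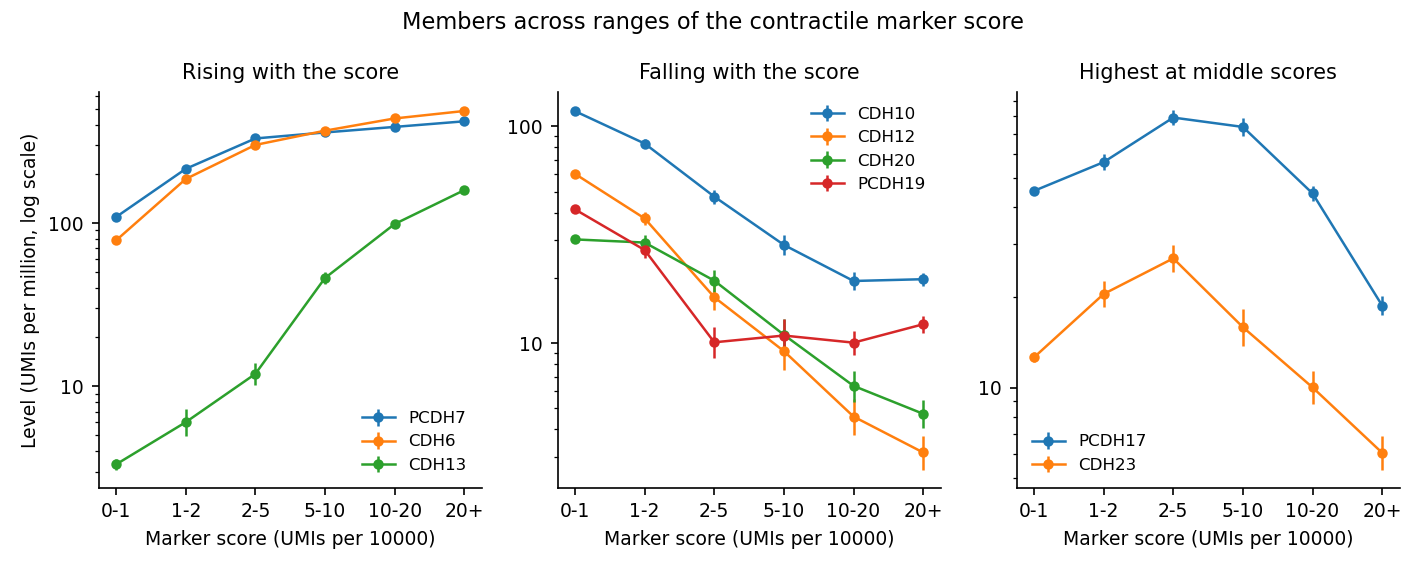
Lines give the level of 9 members (CPM, log axis) in 6 ranges of the summed ANXA1, TFPI2 and CTGF UMIs per 10000 (horizontal axis), with 95% Poisson intervals. PCDH7, CDH6 and CDH13 are higher at high scores, CDH10, CDH12, CDH20 and PCDH19 are lower, and PCDH17 and CDH23 are highest between 2 and 5, at 79.3 and 26.9.

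Progenitors were divided further by cuts on the summed UMIs of regional or cell state genes per 10000. Each group was compared with the progenitors under its cut, which can still hold some of that RNA, for the 19 members with 1000 or more UMIs in that class. Here a member was counted as higher at a ratio of 1.5 or more and as lower at 0.67 or less. The 5046 cells with 10 or more UMIs of MKI67, TOP2A, CENPF and UBE2C (mitotic genes) per 10000 had the fewest members past these limits of the 7 groups. No member was higher (3.15% of all genes were) and 1 was lower (2% of all genes), PCDH15, at 12.6 against 24.8 CPM.

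The 973 cells with 2 or more UMIs of EMX2, a gene of the dorsal forebrain, per 10000 (54.9% of progenitors had any) had 2 members higher, beside 1.54% of all genes, and 4 lower, beside 2.45%. PCDH19 was at 78.5 against 35.5 CPM (ratio 2.21) and CDH18 at 21.5 against 13.4 (1.60). The lower ones were PCDH7 (0.591), CDH6 (0.658), PCDH17 (0.649) and CDH23 (0.529). With every cell thinned to 5000 UMIs, PCDH7 (0.676) and CDH6 (0.786) no longer passed the limit. The 176 cells with 1 or more UMIs of RAX and SIX6 together, genes of the eye field and hypothalamus, per 10000 had the opposite order for CDH6, CDH23, PCDH7 and PCDH19. There 3 members were higher, beside 1.37% of all genes, CDH6 (177 against 99.3, ratio 1.79), CDH23 (1.66) and PCDH7 (1.53), and 3 were lower, beside 5.24%, PCDH19 (16.6 against 38.7, ratio 0.429), CDH12 (0.457) and PCDH15 (0.502).

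The 52 cells with 1 or more UMIs of NKX2-1, a gene of the ventral forebrain, per 10000 had 2 members higher (6.05% of all genes) and 6 lower (10.1%). CDH12 was at 107 against 55.7 CPM (ratio 1.93, 1.55 to 2.37) and PCDH17 at 76.2 against 48.1 (1.59), while CDH6 was at 44.1 against 100.6 (0.438). In the 40 cells with 1 or more UMIs of PAX3, a gene of the dorsal neural tube and crest, per 10000, 4 members were higher (5.47% of all genes) and 6 lower (11.4%). CDH18 was at 33.1 against 13.9 (ratio 2.38, 1.51 to 3.58), and CDH12 at 11.5 against 56.0 (0.206, 0.0888 to 0.406). With every cell thinned to 5000 UMIs, CDH8 (0.753, from 0.613) and PCDH10 (1.455, from 1.73) no longer passed the limits. CDH12 was thus higher in the first and lower in the second of these groups of few cells, where several of the counts rest on fewer than 10 UMIs.

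The 212 cells with 5 or more UMIs of EPHA3 and C1orf61 together per 10000 had 6 members higher (8.29% of all genes) and 3 lower (9.44%). PCDH19 was at 179 against 36.4 CPM (ratio 4.91, 4.50 to 5.34), the highest ratio of any member within progenitors. CDH18 followed (45.5 against 13.5, ratio 3.37), then CDH8 (2.82), PCDH15 (2.22), PCDH10 (1.61) and CDH6 (1.53). The lower members were CDH12 (0.497), PCDH18 (0.477) and PCDH1 (0.409), and PCDH18 was at 0.857 once cells were thinned. The 1043 progenitors with 10 or more UMIs of TAGLN per 10000 (50.2% of progenitors had any), all below the contractile cut, had 4 members higher (5.02% of all genes) and 7 lower (11.5%). CDH6 was at 254 against 78.7 (ratio 3.22), PCDH7 at 303 against 106 (2.85), CDH23 at 29.0 against 11.995 (2.42) and PCDH17 at 78.8 against 43.8 (1.80). PCDH19 was at 6.96 against 42.8, a ratio of 0.163, and CDH12 (0.371) and CDH10 (0.455) were low as well.

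**Figure D5:**
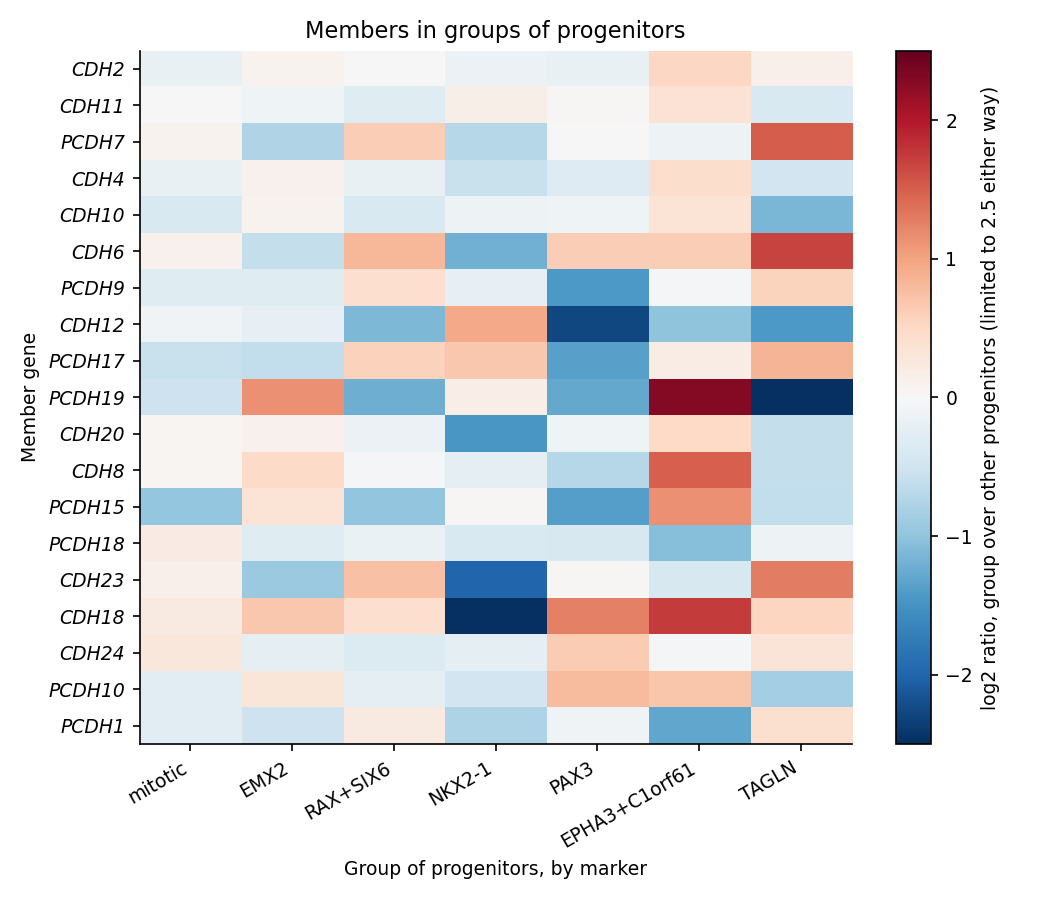
Each cell gives the log2 ratio of a member's level in a group of progenitors (columns, by the genes whose summed UMIs per 10000 define the group) over the progenitors under the group's cut (rows are the 19 members with 1000 or more UMIs in progenitors). Red is higher and blue is lower, with colours limited at 2.5 either way. PCDH19 is the reddest in the EPHA3 and C1orf61 group (ratio 4.91) and the bluest in the TAGLN group (0.163), and the mitotic column is pale.

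Some members that lie next to each other in the genome differed in their ratios, and others were close. The 34 genes lie on 10 chromosomes, with 8 on chromosome 16 and 7 on chromosome 5. On chromosome 5 (GRCh38 coordinates) CDH18 (19471296 to 20575873), CDH12 (21750673 to 22853344), CDH10 (24487100 to 24644978), CDH9 (26880597 to 27121150) and CDH6 (31193686 to 31329146) follow each other. In contractile cells their ratios to progenitors were, in this order, 2.09, 0.0816, 0.190, 1.57 and 4.50, the value of CDH9 resting on 17 UMIs. In newborn neuron-like cells they were 23.8, 1.18, 0.512, 45.0 and 0.147, the value of CDH9 there resting on 11 UMIs. CDH20 and CDH7, 4.19 Mb apart on chromosome 18, had ratios of 0.212 and 4.08 in contractile cells. CDH8 and CDH11, 2.91 Mb apart on chromosome 16, had ratios of 1.67 and 0.331 in newborn neuron-like cells. The closest pairs lay within 2-fold in contractile cells. CDH3 and CDH1, 0.00982 Mb apart on chromosome 16, had ratios of 1.06 and 1.07 there, the value of CDH1 resting on 15 UMIs. PCDH1 and PCDH12, 0.0643 Mb apart on chromosome 5, had ratios of 0.761 and 0.562, the value of PCDH12 resting on 21 UMIs.

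RefSeq promoter sequences (GRCh38.p14) matched 21 members with 33 starts, and those shown are the 5 members that were 2-fold or more higher or lower in contractile cells and have 1 start. PCDH7 was 3.06-fold higher there, and CDH10, CDH20, PCDH19 and PCDH18 were 5.26-fold, 4.71-fold, 3.39-fold and 2.19-fold lower. Each line gives the 250 bases before the start, 5′ to 3′ on the gene's strand, from chr4:30720119-30720368 (PCDH7, plus strand), chr5:24644979-24645228 (CDH10, minus), chr18:61333180-61333429 (CDH20, plus), chrX:100410274-100410523 (PCDH19, minus) and chr4:137532495-137532744 (PCDH18, minus). Capitals mark matches on either strand. The core bound by TEAD factors was searched as CATTCC. One kind of E-box was searched as CACCTG. The other kind, which reads the same on both strands, was searched as CAGCTG. The GC box was searched as GGGCGG.
PCDH7: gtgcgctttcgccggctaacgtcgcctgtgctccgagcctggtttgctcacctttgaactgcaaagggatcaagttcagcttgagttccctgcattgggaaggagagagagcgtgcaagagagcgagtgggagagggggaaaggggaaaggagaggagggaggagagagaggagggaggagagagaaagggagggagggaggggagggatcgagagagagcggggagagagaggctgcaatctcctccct
CDH10: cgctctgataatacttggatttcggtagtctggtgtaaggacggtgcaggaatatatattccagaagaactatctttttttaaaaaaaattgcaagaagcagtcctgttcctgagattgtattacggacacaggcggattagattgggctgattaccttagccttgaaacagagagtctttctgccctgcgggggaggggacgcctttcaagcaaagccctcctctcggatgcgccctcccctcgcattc
CDH20: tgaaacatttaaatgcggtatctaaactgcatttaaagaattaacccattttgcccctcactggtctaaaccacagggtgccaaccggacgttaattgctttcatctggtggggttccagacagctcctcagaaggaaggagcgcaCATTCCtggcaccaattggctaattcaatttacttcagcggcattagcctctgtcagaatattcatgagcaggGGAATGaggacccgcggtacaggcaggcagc
PCDH19: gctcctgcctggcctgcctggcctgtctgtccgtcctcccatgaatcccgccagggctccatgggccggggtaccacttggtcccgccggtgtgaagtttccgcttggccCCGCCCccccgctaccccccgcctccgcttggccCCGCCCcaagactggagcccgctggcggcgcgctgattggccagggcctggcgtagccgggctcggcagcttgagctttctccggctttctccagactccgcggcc
PCDH18: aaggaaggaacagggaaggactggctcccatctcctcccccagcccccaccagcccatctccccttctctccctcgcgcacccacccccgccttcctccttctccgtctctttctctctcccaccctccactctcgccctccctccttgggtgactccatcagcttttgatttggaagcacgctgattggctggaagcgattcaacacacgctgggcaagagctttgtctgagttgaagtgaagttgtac

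The CDH20 window held the TEAD letters at 2 places, once in each direction, the PCDH19 window held the GC box at 2 places, and the windows of PCDH7, CDH10 and PCDH18 held none of these letters. Their content of G and C ran from 47.6% (CDH10) to 72.0% (PCDH19). Over the 33 member starts, the TEAD letters were in 2 windows (6.06%), beside 11.9% of 35116 windows of all genes. The first E-box was in 4 (12.1%, beside 17.5%), the second in 6 (18.2%, beside 14.0%) and the GC box in 8 (24.2%, beside 42.6%). Such matches describe letters only.

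Of 38 other genes of cadherin adhesion, 30 had 1000 or more UMIs, of which 5 were 2-fold or more higher and 7 lower in contractile cells (over all genes 6.56% and 16.2%), and 8 higher and 5 lower in newborn neuron-like cells (6.81% and 13.6%). Catenins tie classical cadherins to actin. CTNNB1 (beta-catenin) was nearly even, at 174, 183 and 203 CPM in progenitors, contractile cells and newborn neuron-like cells. The neural forms CTNNA2 (304, 135 and 791) and CTNND2 (234, 67.4 and 615) were lower in contractile cells and higher in newborn neuron-like cells. Vinculin (VCL), which joins adhesion sites under tension, had the reverse order, at 227, 504 and 103.

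Among more distant relatives, CLSTN2 (calsyntenin 2, a cadherin-like protein of synapses) was high in both smaller classes, at 13.6 CPM in progenitors, 295 in contractile cells and 392 in newborn neuron-like cells. PCDH11X, a delta-protocadherin whose symbol the rule does not take, was at 80.3, 31.3 and 182. Of the proteases that cut cadherins or their precursors, ADAM10 was at 117, 101 and 148, while ADAM9 (29.95, 110.5 and 20.01) and FURIN (4.68, 18.9 and 1.18) were higher in contractile cells. Of the transcription factors known for repressing CDH1, SNAI2 was at 2.73 in progenitors and 15.5 in contractile cells, ZEB1 at 247 and 138, and ZEB2 at 59.3 and 103. The listed factors with under 1000 UMIs were SNAI1 (0.516 and 2.28), TWIST1 (0.207 and 3.075) and TWIST2 (3.62 and 1.405).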

How the data were processed

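scRNA-seq was done on 1 library (Chromium Next GEM 3′ HT v3.1). The authors deposited raw UMI counts per gene and barcode, mapped to GRCh38 with Cell Ranger 7.0.1 at default settings according to the submitters' processing notes and the study's methods; the same notes name Seurat 4.4.0. The annotation version is not given in the sources used here. By default this Cell Ranger version also counts intronic reads. Gene spans of the 22 members with 1000 or more UMIs ran from 10.5 to 1825 kb, and span and UMIs had a Spearman's rho of 0.389 over those members. All barcodes carry 1 suffix, so loading wells and clones were not separated.

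Cells with 2000 to 10000 genes and a mitochondrial share below 0.1 were kept. Classes were set by marker cuts, not by clustering. No doublet caller was run; an alternative left out the deepest 8% of kept cells. Counts were summed per class and given per 1000000 UMIs of the class (CPM), with exact Poisson intervals for levels, exact conditional intervals for ratios and Clopper-Pearson intervals for shares, all at 95%. The floor is 3 counts. Thinning drew 5000 UMIs per cell without replacement. Full values are given for members with 1000 or more UMIs and for CDH1, CDH2 and CDH18. Ratios were checked on simulated class totals drawn from a Poisson distribution. That simulation had no spread between cells, so it bears on counting error only. Scripts used Python 3.11.15 with scipy 1.17.1, numpy 2.4.6, matplotlib 3.10.9 and pandas 2.3.3. Gene positions came from GENCODE, matched by Ensembl identifier. Members, cuts, marker lists and gene lists were chosen with earlier results of these data known. Member pairs, the division of newborn neuron-like cells, structural groups and promoter motifs were chosen after the values were seen.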

Additional observations from a re-analysis of the deposited data

How the results depend on the processing

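The library had no replicates, so none could be left out, and all ratios lack a replicate check. No paired analysis was possible because there was 1 library. Per cell instead of as CPM, 11 members were 2-fold or more higher and 2 lower in contractile cells (54.7% and 2.27% of all genes) and 5 lower in newborn neuron-like cells (24.7%). The family ratios became 3.42 and 0.914, and PCDH18 turned from lower to 1.14-fold higher in contractile cells. The greater depth of contractile cells raises the per-cell ratio of every member there. Members below 1 but within 2-fold by CPM also turned above 1, among them CDH11 (1.97), CDH4 (1.93), CDH23 (1.58) and PCDH15 (1.34). The family ratio in contractile cells was 1.36 (1.355 with a cut of 2 per 10000, 1.39 against progenitors with a score under 1, 1.32 as the mean of per-cell CPM, 1.31 thinned, 1.27 without the deepest 8% of cells). In newborn neuron-like cells it was 1.196 (1.11 with a cut of 2, 1.24 with a cut of 10, 1.13 as the mean of per-cell CPM, 1.10 thinned). With a newborn cut of 10, 5 members were lower (16.8% of all genes tested). Down to 1 UMI, CDH5, CDH17 and CDH16 joined the higher members in contractile cells, where 11.6% of all genes were higher. CDH9, CDH19 and PCDH8 joined them in newborn neuron-like cells (12.5% of all genes). Of these, 4 had intervals that include a ratio of 1, so their direction is not known. In contractile cells they were CDH17 (12 UMIs, 0.963 to 4.91) and CDH16 (1 UMI, 0.0399 to 246). In newborn neuron-like cells they were CDH19 (1 UMI, 0.176 to 46.0) and PCDH8 (2 UMIs, 0.258 to 7.95). At the same limit, 9 of the 34 members were lower in contractile cells (31.9% of all genes) and 10 in newborn neuron-like cells (41.8%). Of those 10, 7 had no UMI there and a progenitor level under the 1.77 CPM that this depth allows, so their direction is not known. PCDH10 or PCDH18 left the 2-fold calls in contractile cells under 5 of the 10 alternatives that recomputed ratios, and CDH18 did with a contractile cut of 10. A newborn cut of 2 ended the calls of CDH4, CDH11 and PCDH10 in newborn neuron-like cells and took the CDH18 ratio from 23.8 to 8.95. No other called member left the 2-fold calls, except PCDH19 and CDH20 per cell. The causes were not tested.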
